A study of Mus musculus with 4 samples.

Results

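Cell adhesion molecules are the surface proteins by which cells hold on to each other and to their matrix, and the genes described here are those with at least 1 MyoD peak row and a KEGG pathway annotation of cell adhesion molecules. Genes also annotated to extracellular matrix and receptor interaction were left out, as were Cdh15 and Jam2. This gave 43 genes of the 7235 that the deposited files name, and 50 peaks of the list with pyruvate and 91 peaks of the list without pyruvate were assigned to them. The selection used the annotation and the presence of a row in either list, so every member has a peak by construction.

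MyoD is a basic helix-loop-helix transcription factor that binds E-boxes, short palindrome-like DNA motifs, and switches on muscle genes. When myoblasts fuse into multinucleated myotubes, cadherins and immunoglobulin-family adhesion molecules bring their membranes together, and NCAM later concentrates at the neuromuscular junction. The KEGG pathway also holds adhesion molecules of synapses, of vessel walls and of immune cells, which are not typical of a muscle fibre.

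MyoD ChIP-seq was made from myotubes that had formed from primary myoblasts of C57BL/6 mice aged 2 weeks. After 5 days in DMEM with 2% horse serum, the myotubes spent 24 hours in this medium with pyruvate or without pyruvate, and each condition gave 1 MyoD ChIP library and 1 input. Inputs were not analysed here, and how many mice or cultures stand behind a library is not given in the sources used here. With 1 library per condition the spread between replicates is unknown, so differences are given as values without a test.

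The list with pyruvate held 11907 peaks and the list without pyruvate 19338, so a gene has more chances of a peak in the second. Read depth is unknown, so binding too weak to be called cannot be told apart from no binding. The conditions were taken from the sample titles, although an abbreviation in the deposited file names could be read the other way. Among myotube markers, Myog, Des, Chrna1 and Ttn had a peak in both lists. Acta1 had 5 peak rows in the list with pyruvate and 1 in the list without pyruvate, and Ckm had 1 with pyruvate and 0 without. The same peak can have several rows for a gene. Peak width, given as end minus start, was the only measure per peak, since the deposited fold enrichment is 0 in every row with a number.

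Of the 43 adhesion genes, 23 were bound in both lists, 2 (Itgam and Negr1) only with pyruvate and 18 only without pyruvate. These are 53.5%, 4.65% and 41.9% of the members, beside 55.1%, 9.95% and 35.0% of all 7235 genes and 57.4%, 9.99% and 32.6% of the 2103 genes with any KEGG text. The members' exact 95% intervals, 37.7 to 68.8%, 0.568 to 15.8% and 27.0 to 57.9%, hold the shares of all genes, and the middle one rests on 2 genes. In 22 of the 23 genes at least 1 peak overlapped between the lists by 1 base or more, the exception being Jam3, and so it did in 94.7% of all genes found in both lists. More peaks were listed with pyruvate than without in 4 genes, equal numbers in 10 and fewer in 29 (9.3%, 23.3% and 67.4%), against 16.9%, 29.2% and 53.8% of all genes.

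The split depended on list length and on width. With the longer list limited to its widest peaks, as many as the shorter list holds, 19 members were in both lists, 6 only with pyruvate and 6 only without, against 46.8%, 18.2% and 16.8% of all genes. With peaks of at least 250 bases alone, 13 members were in both lists, 2 only with pyruvate and 10 only without, against 29.4%, 8.32% and 20.6% of all genes.

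**Figure D1:**
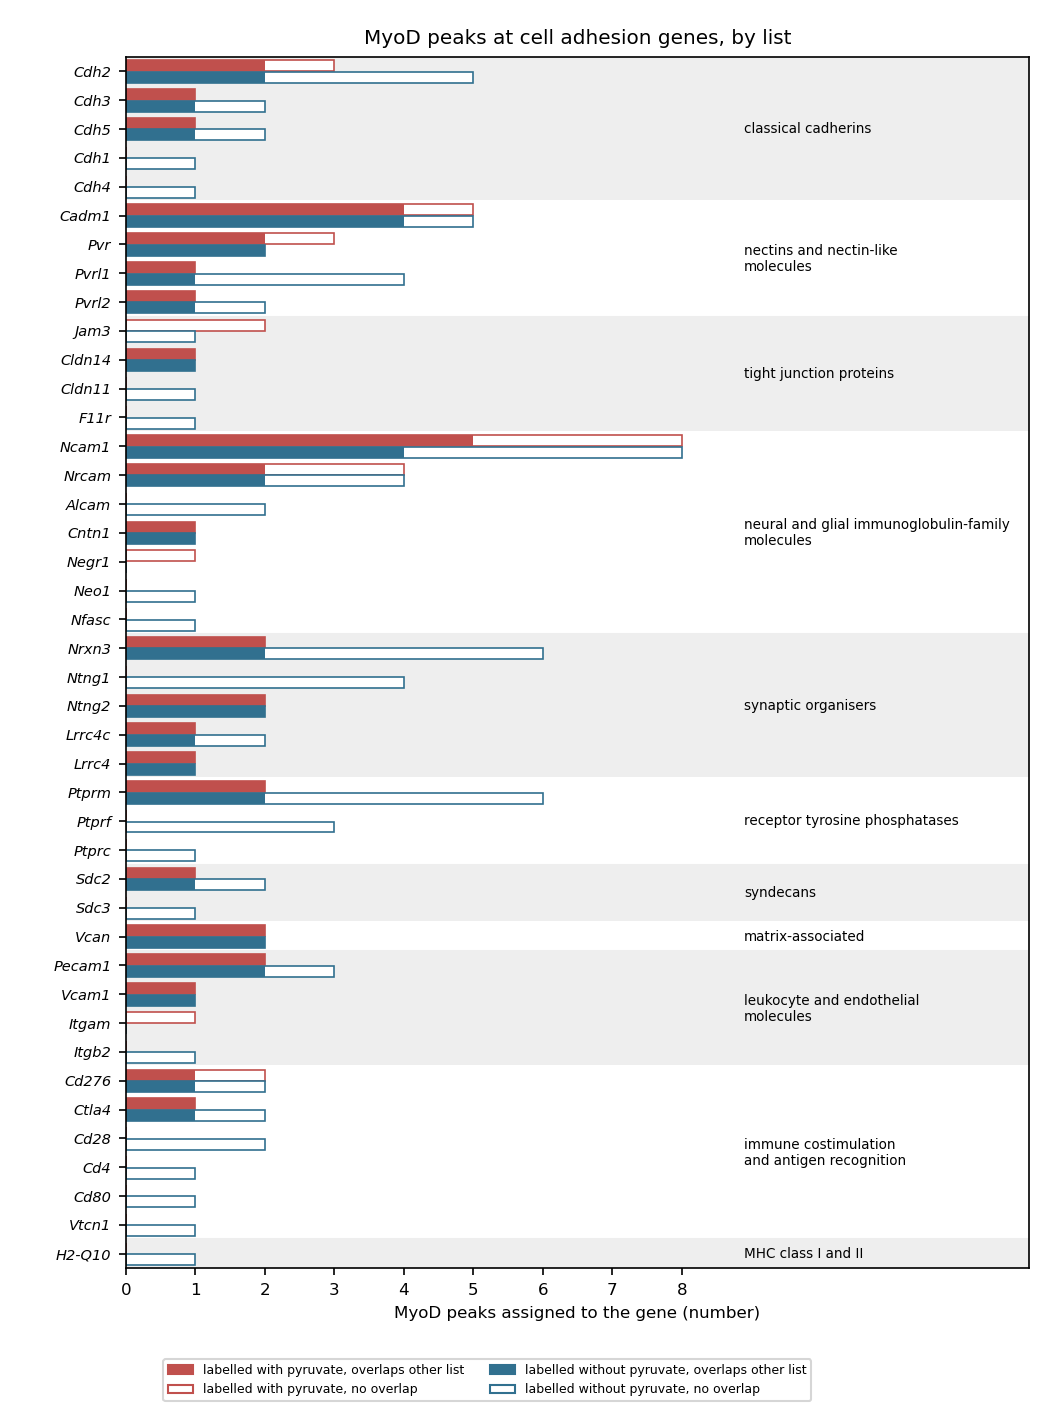
Horizontal bars give the number of MyoD peaks assigned to the cell adhesion genes reported by name, with the list with pyruvate above the list without pyruvate, and genes are grouped by role. Filled lengths count peaks that overlap a peak of the other list and open lengths those that do not. Ncam1 is the highest in both lists with 8 peaks each, and Itgam and Negr1 are the genes with a bar in the list with pyruvate alone.

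Of the member peaks, 37 of 50 in the list with pyruvate (74.0%, 95% exact binomial interval 59.7 to 85.4) and 36 of 91 in the list without pyruvate (39.6%, 29.5 to 50.4) overlapped the other list. Over all peaks these shares were 71.8% with pyruvate and 44.2% without, which lie inside the members' intervals. Over peaks assigned to any gene they were 71.5% with pyruvate and 46.9% without. With the longer list limited as above, 60% of its member peaks overlapped. Intervals cover counting error only.

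Overlapping peaks were wider by their median. Their median width was 259 bases in the list with pyruvate and 296 bases in the list without, whereas peaks with no partner had medians of 237 bases with pyruvate and 206 bases without. All peaks of both lists showed the same order, with medians of 265 bases with pyruvate and 289 bases without for overlapping peaks, and 218 bases with pyruvate and 212 bases without for the others. Of the 37 overlapping peaks of the list with pyruvate, 11 (29.7%, 15.9 to 47.0) were wider than the peak they met in the list without pyruvate, against 37.7% of 8518 such peaks over both lists as a whole. The 18 genes seen only without pyruvate had 25 peaks between them, 144 to 305 bases wide with a median of 206, and 5 of these reached 250 bases. This median lay near the 212 bases of all peaks of that list with no partner. The share of those that reached 250 bases was not counted.

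**Figure D2:**
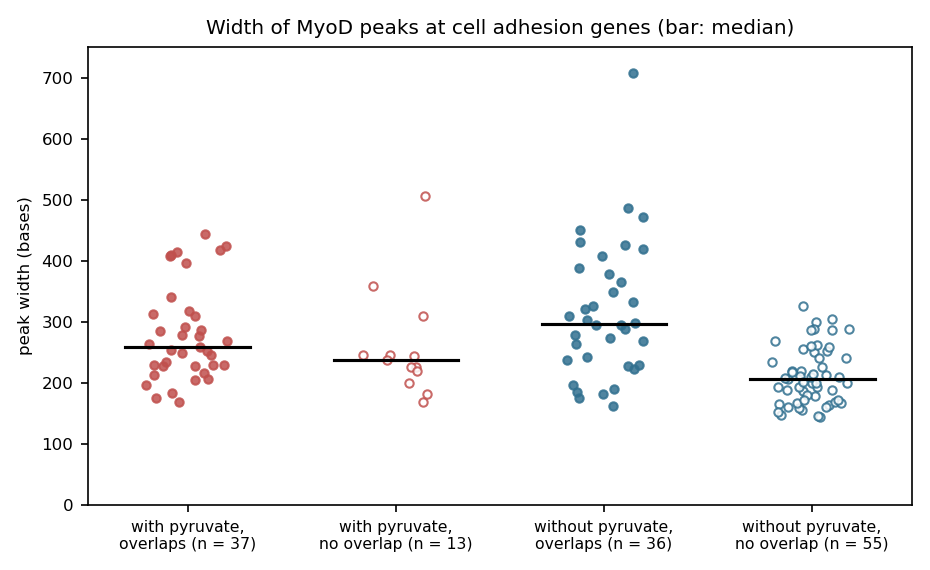
Each point is 1 MyoD peak at a cell adhesion gene, the vertical axis is its width in bases and the bar is the median. The groups are peaks that overlap the other list and peaks that do not, for the list with pyruvate and then for the list without. In the list without pyruvate no peak that lacks a partner is wider than 326 bases, and the widest with a partner has 708.

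Most peaks at these genes lay inside the gene and away from its start. Of the member peaks, 44 of 50 in the list with pyruvate (88.0%, 75.7 to 95.5) and 82 of 91 in the list without pyruvate (90.1%, 82.1 to 95.4) were in the gene body more than 2 kb from its start. At other genes 73.8% of peak rows with pyruvate and 75% of those without lay there, where the same peak can have several rows for a gene. The median distance from the start was 39.2 kb in the list with pyruvate and 56.1 kb in the list without, against 29.6 kb with pyruvate and 32.3 kb without at other genes. Over 50 kb inside the gene lay 23 of 50 member peaks with pyruvate (46.0%, 31.8 to 60.7) and 46 of 89 located ones without (51.7%, 40.8 to 62.4), against 38.1% with pyruvate and 40.1% without at other genes, whose bodies had a shorter median.

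Peaks were called promoter-proximal within 2 kb of a located start, or in a 2-kb flank that could be on either side of the gene, and occurred at 8 members. Over all genes, 42.3% had such a peak in either list. They were in both lists at 3 genes (6.98%, against 18.7% of all genes), only in the list with pyruvate at 1 (2.33%, against 6.01%) and only in the list without pyruvate at 4 (9.3%, against 17.7%). Among genes with KEGG text the 3 shares were 15.8%, 5.61% and 14.8%. By peaks, 5 of 50 were promoter-proximal in the list with pyruvate (10%, 3.33 to 21.8) and 7 of 91 in the list without (7.69%, 3.15 to 15.2). Of the peak rows of other genes, 23.8% (22.9 to 24.7) were promoter-proximal with pyruvate and 22.9% (22.2 to 23.6) without. Without the flanks of unknown side the shares with pyruvate were 10% of member peaks and 13.9% of the peak rows of other genes. Those without pyruvate were 5.49% (1.81 to 12.4) of member peaks and 13.1% of the peak rows of other genes.

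The window and the width limit moved these counts. With a window of 10 kb, 8 members counted as proximal in both lists, 2 only with pyruvate and 6 only without, against 28.0%, 7.64% and 24.3% of all genes. With peaks of at least 250 bases the member counts were 1, 1 and 3, against 7.91%, 3.9% and 8.06% of all genes.

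Among other genes the share with a peak near a located start fell with gene length, and among the few members it did not. The members' located gene bodies had a median of 87.2 kb, against 46.9 kb in other genes, and a flank with no located body counts as proximal whatever its side. Start sites could be located for 41 members, not for Cd80 and H2-Q10, and for all but 1417 of the 7235 genes. A gene is located mostly by a peak in its body, so this set is itself chosen by where peaks fell and its shares are descriptions only. Counting located start sites alone, 6 of 41 members had a peak within 2 kb in either list (14.6%, 5.57 to 29.2), against 28.2% of all 5818 located genes and 28.3% of those that are no members. By list, 3 of the 41 had one in both lists, 1 only with pyruvate and 2 only without, against 12.9%, 3.85% and 11.5% of the located genes. Under 50 kb the share was 16.7% of 12 members (2.09 to 48.4), against 40.6% of other genes. From 50 to 200 kb it was 6.25% of 16 members (0.158 to 30.2), against 16.5%, and over 200 kb 23.1% of 13 members (5.04 to 53.8), against 10.9%. The part of gene length in the lower shares of the members was not tested.

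**Figure D3:**
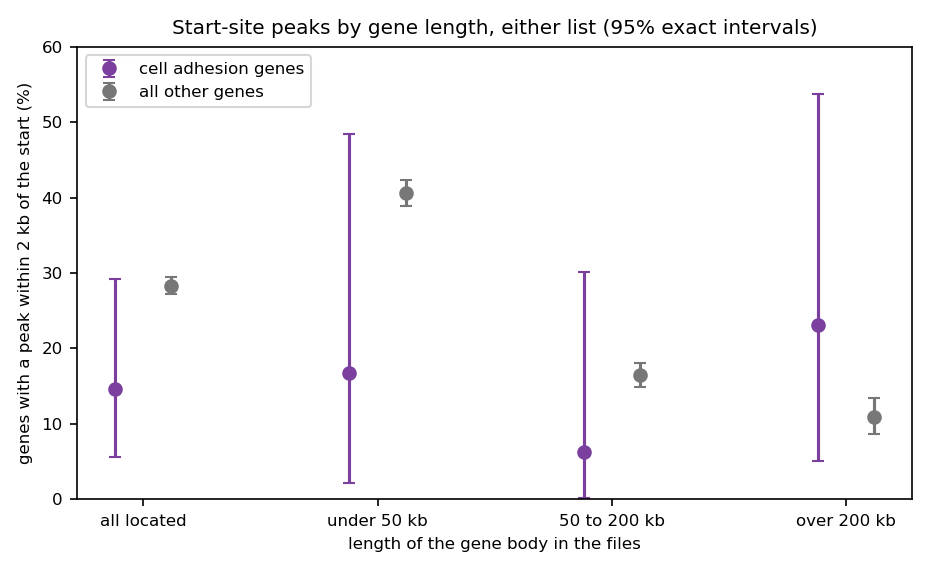
Points give the share of genes, in percent, with a MyoD peak within 2 kb of the start in either list, for cell adhesion genes left of all other genes, over all located genes and by length of the gene body. Error bars are 95% exact binomial intervals. The order of the points turns in genes over 200 kb, and the intervals of the cell adhesion genes are wide, from 0.158 to 30.2% in genes of 50 to 200 kb.

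The classical cadherins, which bind the same cadherin on the next cell through calcium-dependent contacts, were present with 5 members. Cdh2 (N-cadherin, the cadherin of muscle precursors and of many neural cells) had 3 peaks in the list with pyruvate and 5 in the list without, of which 2 in each overlapped. The overlapping pairs lay 28260 and 63889 bases inside the gene with pyruvate and were 397 and 278 bases wide with pyruvate, against 379 and 321 bases without. Another Cdh2 peak of 359 bases (chr18:16899352-16899711, all coordinates of peaks are of mm9) was in the list with pyruvate alone, 3785 bases from any peak without pyruvate. The 3 unpaired Cdh2 peaks without pyruvate were 288, 194 and 189 bases wide. Cdh3 (P-cadherin) and Cdh5 (the cadherin of vessel endothelium) each had 1 overlapping pair inside the gene, 285 and 253 bases wide with pyruvate and 294 and 162 bases without, and each had 1 more peak without pyruvate (199 and 287 bases). Cdh1 (E-cadherin, of epithelia) and Cdh4 (R-cadherin) had a single peak each, seen only without pyruvate, 213 and 147 bases wide. None of the cadherin peaks was promoter-proximal.

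Nectins and nectin-like molecules are immunoglobulin-family proteins that start cell contacts without calcium, and all 4 members of this group had overlapping peaks. Of all 7235 genes, 3984 were in both lists and 3772 of these had an overlapping peak. Among all 43 members, 22 had one. Another 10 symbols of this group, newer names of the same genes among them, had no row in either file. Cadm1, a nectin-like molecule, carried 5 peaks in each list, and 4 of each overlapped, between 44849 and 241907 bases from its start. The overlapping peaks were 313, 235, 229 and 310 bases wide with pyruvate, against 407, 278, 366 and 303 bases without. The unpaired peaks were 226 bases wide with pyruvate and 164 bases without. Pvr, the mouse homologue of the poliovirus receptor, had 2 adjacent overlapping pairs, 444 and 415 bases wide with pyruvate and 431 and 223 bases without. One more Pvr peak of 237 bases, 1826 bases away from any peak without pyruvate, was listed with pyruvate alone. All 5 Pvr peaks were also assigned to an unnamed gene (ENSMUSG00000089886). Pvrl1 (nectin-1) had 1 peak with pyruvate and 4 without, with 1 overlapping pair of 229 bases with pyruvate and 196 bases without, and unpaired peaks of 180, 201 and 259 bases without pyruvate.

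Pvrl2, now named Nectin2, was the member whose overlapping peak lay across the start of the gene. That peak was 287 bases wide with pyruvate (chr7:20334872-20335159) and 243 bases wide without pyruvate (chr7:20334864-20335107). It reached from 237 bases upstream of the start to 50 bases into the gene with pyruvate, and from 185 bases upstream to 58 bases into the gene without. Without pyruvate Pvrl2 had another peak of 152 bases in its downstream flank, also assigned to Tomm40. The files list no body for this gene, and its place was taken from its 2 flanks, which leave 32930 bases between them, equal to the length of the gene in RefSeq. The RefSeq promoter of GRCm38.p6 (chr7:19749524-19749823, minus strand), from 250 bases before the start to 50 bases after it, is shown because, with the starts of both builds set equal, the peak covers 287 of its 300 bases with pyruvate and 235 without, with the E-box CAGGTG in capitals.
Pvrl2: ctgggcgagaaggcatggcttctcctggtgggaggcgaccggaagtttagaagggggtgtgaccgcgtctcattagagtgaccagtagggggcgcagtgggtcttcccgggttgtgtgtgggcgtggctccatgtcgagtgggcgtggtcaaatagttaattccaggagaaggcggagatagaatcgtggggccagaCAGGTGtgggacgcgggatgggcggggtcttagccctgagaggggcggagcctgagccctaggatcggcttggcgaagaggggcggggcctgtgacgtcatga
The first base of this E-box lies 53 bases upstream of the start, inside the peak of both lists when the starts are set equal, and it is the only match to CANNTG in the window. Searched on both strands, CAGGTG was found in 8 of the 34 promoters listed for 26 members (23.5%) and in 20.2% of the 32851 RefSeq promoters of this length. CAGCTG was found in 5 of the member promoters (14.7%) and in 16.3% of all. Any CANNTG, which includes both, was found in 24 of the member promoters (70.6%) and in 72.3% of all. These letters describe the windows and do not show a bound site.

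Tight junction proteins seal the space between neighbouring cells, and 4 were members. Jam3, an immunoglobulin-family junction molecule, was the gene with peaks in both lists and no overlap: 2 peaks of 200 and 226 bases with pyruvate and 1 of 160 bases without, 3866 bases from the nearer of them. The claudin gene Cldn14 had 1 overlapping pair of 175 bases with pyruvate and 176 bases without, inside the gene. Cldn11 (178 bases) and F11r, which encodes junctional adhesion molecule A (187 bases), had a peak only without pyruvate. Another 24 symbols of the junction list had no row in either file, of 128 such symbols over all role lists.

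The immunoglobulin-family molecules of nerve and glia, 7 genes, held the member with the most peaks. Ncam1, the neural cell adhesion molecule that also marks muscle precursors and innervated muscle, had 8 peaks in each list. At least 8 peaks were reached by 62 of 4704 genes with a peak in the list with pyruvate (1.32%) and by 164 of 6515 genes in the list without pyruvate (2.52%). At its start, a pair of overlapping peaks began 35 bases upstream and was 216 bases wide with pyruvate (chr9:49607062-49607278) and 264 bases without pyruvate (chr9:49607062-49607326). A second start-site peak of 219 bases, 1348 bases inside the gene, was listed with pyruvate alone. The Ncam1 body is 0.494 kb shorter in the files than in RefSeq.

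Further inside Ncam1, 2 peaks of 407 and 259 bases with pyruvate overlapped a single peak of 708 bases without pyruvate (chr9:49471269-49471977). This was the widest peak at any member, at the 99.5 percentile of its list. Further in, 260677 and 262041 bases from the start with pyruvate, 2 more pairs overlapped, 424 and 207 bases wide with pyruvate against 450 and 229 bases without, in a stretch that also belongs to the predicted gene Gm11149. The remaining Ncam1 peaks had no partner in the other list, with 2 inside the gene with pyruvate (169 and 245 bases) and 4 without (326, 155, 240 and 255 bases).

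Nrcam, an adhesion molecule of axons and nodes of Ranvier, had 4 peaks in each list and 2 overlapping pairs, of 341 and 197 bases with pyruvate and 269 and 190 bases without. Its start-site peak was seen with pyruvate alone (chr12:45429931-45430177, 246 bases wide, 59 bases inside the gene), and the nearest peak without pyruvate was 15013 bases away. The Nrcam body is 3.33 kb shorter in the files than in RefSeq, so the RefSeq start may differ. Also with pyruvate alone was a peak of 506 bases, 199502 bases inside the gene (chr12:45629374-45629880), the widest member peak of that list and at the 96.2 percentile of its widths. The nearest peak without pyruvate lay 3022 bases from it. Without pyruvate, Nrcam had 2 other peaks of 209 and 194 bases.

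**Figure D4:**
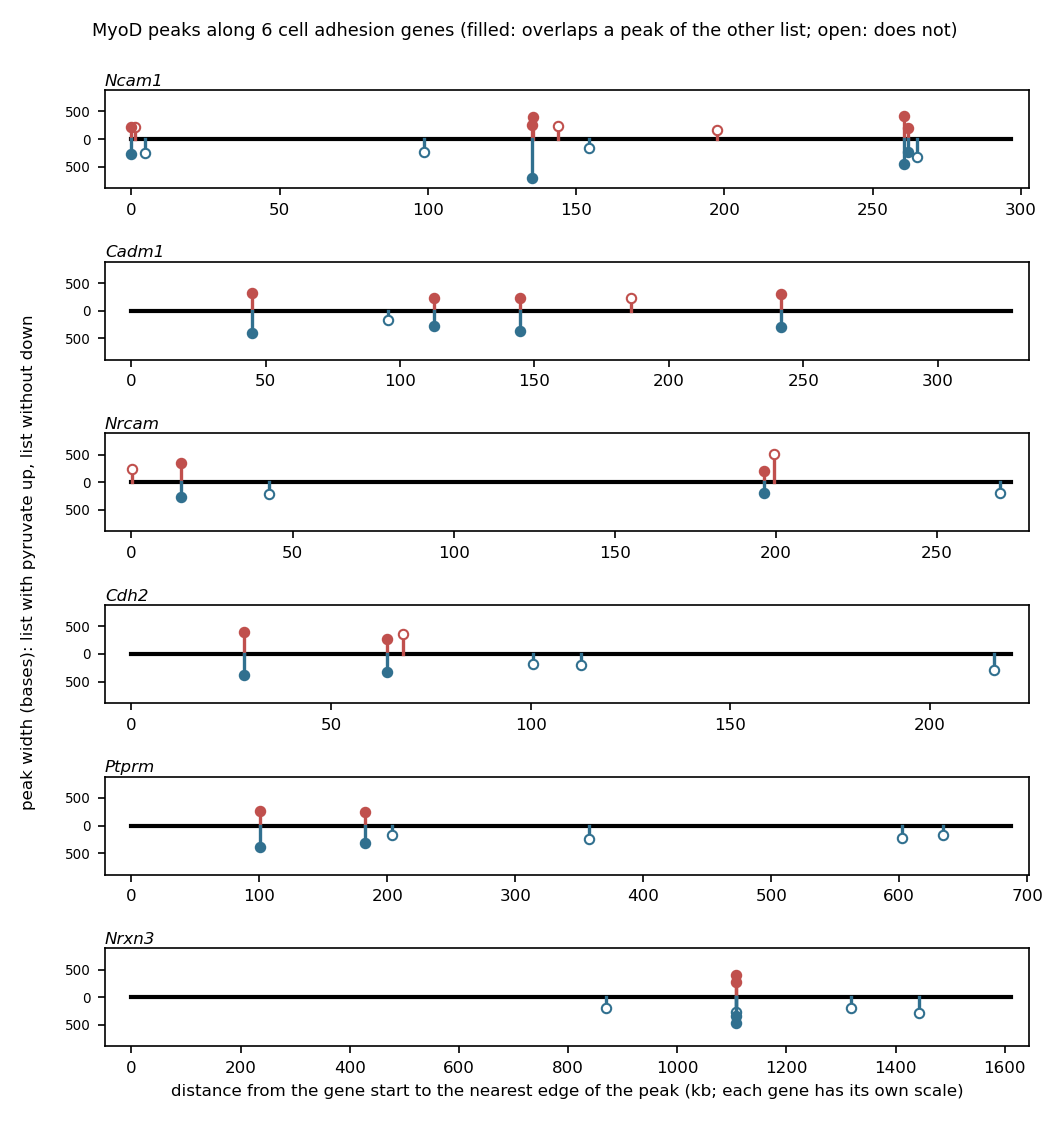
The 6 genes with 8 or more peaks over both lists are drawn from their start at 0, with the distance to the nearest peak edge in kb along the horizontal axis and a separate scale per gene. Stems rise for the list with pyruvate and point down for the list without, their length is peak width in bases, and filled heads overlap a peak of the other list. Ncam1 and Nrcam have stems at the start, while Cadm1, Cdh2, Ptprm and Nrxn3 have none there.

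The other genes of this group had 1 or 2 peaks. Alcam, a ligand of the lymphocyte receptor CD6 that also joins like cells, had a peak of 299 bases that began 789 bases inside the gene as listed (chr16:52453099-52453398) and one of 206 bases further in, both seen only without pyruvate. The nearest peak with pyruvate was 380925 bases from the first of these. The Alcam body is 993 bases longer in the files than in RefSeq. Cntn1 (contactin-1, of axons) had an overlapping pair of 169 bases with pyruvate and 185 bases without, the width with pyruvate being the narrowest in its list. Negr1 had 1 peak of 181 bases only with pyruvate, and Neo1 (neogenin, a receptor for netrins, 211 bases) and Nfasc (neurofascin, 194 bases) 1 each only without.

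Synaptic organisers link the membranes on either side of a synapse, and 6 were members. Nrxn3, a neurexin of presynaptic membranes and the longest member with 1612 kb, had 2 peaks with pyruvate and 6 without. Its 2 overlapping pairs stood side by side, 1107508 and 1108410 bases from the start with pyruvate, 269 and 409 bases wide with pyruvate and 349 and 472 bases without. The 4 unpaired peaks without pyruvate were 199, 262, 188 and 288 bases wide, and the 262-base one lay 425 bases from the first pair. Ntng2 (netrin-G2) had 2 peaks in each list, both overlapping, 418 and 183 bases with pyruvate and 486 and 228 bases without. The related Ntng1 had 4 peaks without pyruvate (305, 209, 172 and 167 bases) and none with, the nearest peak with pyruvate lying 443206 bases off. Lrrc4c, which encodes the ligand of netrin-G1, had 1 overlapping pair of 205 bases with pyruvate and 274 bases without, and a peak of 286 bases without pyruvate. Lrrc4, which encodes a related ligand, had 1 pair of 249 bases with pyruvate and 426 bases without, which was also assigned to Snd1, in a body of 169.9 kb that is 166 kb longer than the RefSeq gene.

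Receptor tyrosine phosphatases carry adhesion domains outside the cell and phosphatase domains inside. Ptprm, which binds itself on the neighbouring cell, had 2 peaks with pyruvate (245 and 263 bases), both overlapping peaks without pyruvate (309 and 388 bases). It had 4 more without pyruvate, 166 to 241 bases wide. Ptprf (3 peaks of 146 to 217 bases) and Ptprc (CD45, of blood cells, 260 bases) had peaks only without pyruvate.

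Of the proteoglycans, Vcan, which encodes versican of the pericellular matrix, had 2 overlapping pairs, 277 and 254 bases wide with pyruvate and 419 and 294 bases without. The second lay 2936 bases from the start with pyruvate and 2906 bases without, just outside the 2-kb limit. The Lrrc4 pair did so too, at 2902 bases with pyruvate and 2812 bases without. Sdc2 had 1 overlapping pair of 230 bases with pyruvate and 182 bases without, and 1 more peak without pyruvate (208 bases), and Sdc3, a syndecan of satellite cells, had 1 peak only without (215 bases).

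Among the adhesion molecules of leukocytes and endothelium, Pecam1 (CD31, of endothelial junctions) had 2 overlapping pairs and 1 more peak without pyruvate (220 bases). One pair lay deep in the gene, 227 bases wide with pyruvate and 238 bases without. The pair upstream of its start was 291 bases wide with pyruvate (chr11:106612334-106612625) and 326 bases without pyruvate (chr11:106612309-106612635). It lay 392 bases from the start with pyruvate and 367 bases without, and was also assigned to Gm885. The Pecam1 body in the files is 35.3 kb longer than in RefSeq, so this start may not be the one RefSeq gives. Vcam1, whose product binds an integrin of leukocytes and of developing muscle, had 1 pair inside the gene, 228 bases with pyruvate and 333 bases without. Itgam and Itgb2, the chains of an integrin of myeloid cells, had 1 unpartnered peak each: Itgam 309 bases with pyruvate only, and Itgb2 251 bases without pyruvate only. The Itgam body is 9.67 kb longer in the files than in RefSeq.

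Immune costimulation and antigen recognition genes numbered 6, and 2 had overlapping peaks. Of all 43 members 22 had one, and of all 7235 genes 3772 were in both lists with an overlapping peak. Cd276, which encodes B7-H3, had a pair of 213 bases with pyruvate and 298 bases without, inside the gene. It also had a peak of 244 bases only with pyruvate, and a peak of 268 bases, 213 bases upstream of the start, only without (chr9:58403152-58403420), also assigned to Gm10657. Ctla4, an inhibitory receptor of T cells, had a pair of 317 bases with pyruvate and 288 bases without, in its downstream flank and a peak of 168 bases without pyruvate. Cd28 (253 and 219 bases), Cd4 (144 bases, the narrowest width in that list), Vtcn1 (172 bases) and Cd80 (160 bases, in a flank of unknown side) had peaks only without pyruvate. The only MHC gene was H2-Q10, with a peak of 234 bases in a flank of unknown side, without pyruvate only. Another 37 MHC symbols of the list had no row in either file, of 128 such symbols over all role lists. Symbols were matched as spelled, and the share of all mouse genes without a row was not counted.

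Cytoplasmic partners that tie adhesion molecules to actin or to scaffolds were described beside the members. Of 24 symbols listed, an older and a newer name of the same gene among them, 18 were named in the files. Of these 18 genes, 13 had peaks in both lists, 1 only with pyruvate and 4 only without pyruvate, against 55.1%, 9.95% and 35.0% of all genes. The gene seen only with pyruvate was Ctnna2, an alpha-catenin of neurons, named after its value was seen, with 1 peak of 295 bases. Jup (plakoglobin, of desmosomes and adherens junctions) had 1 peak row with pyruvate and 3 without. Of those without pyruvate, 1 of 220 bases was the single promoter-proximal peak at the 18 genes. Such a peak in either list was found at 42.3% of all genes and, counting located starts alone, at 28.2% of located genes. The lengths of the partner genes were not compared.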

How the data were processed

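MyoD was immunoprecipitated with the antibody SC-760, and libraries of about 250 bp were amplified for 15 cycles, per the labels' protocols. The submitters' processing notes name bcl2fastq 2.19, Bowtie2 2.1.0, MACS2 2.1.1 and mm9. Read filters, the peak threshold, how inputs entered and which annotation was used are not stated in the sources used here. The deposited rows pair each peak with gene bodies or 2000-base flanks, and in 99.1% of rows the peak's centre lies in the region. The deposited columns for fold enrichment (a ratio) and a second score hold only 0 and were not used.

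Rows were reduced to distinct peaks, and overlap needed 1 base. Start sites came from bodies and strands, or from the gap between 2 flanks, for 5818 genes. At 41 members the body was compared with RefSeq GRCm38.p6, and 23 had a length within 100 bases of it. In the files 6 bodies were over 5 kb longer and 2 over 5 kb shorter, so the promoter-proximal count may differ at RefSeq starts. One member is counted but not reported by name here. All 43 members matched RefSeq by identifier or symbol. Members, role lists and comparisons were chosen with earlier results of these data known, and the roles of Neo1, Sdc2 and Sdc3 were added after the files were read. Named genes were those with a promoter-proximal peak, the most peaks or the widest peaks, and the values of the remaining members were added by role after they had been seen. Alternatives were stricter overlap, other start windows, peaks of at least 250 bases, equal list length, and leaving out very long genes or peaks shared with another gene. The overlap code was tested on simulated data. Software was matplotlib 3.10.9, scipy 1.17.1, pandas 2.3.3 and numpy 2.4.6 under Python 3.11.15.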

Additional observations from a re-analysis of the deposited data

How the results depend on the processing

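Of 46 values under alternatives, 35 stayed within 1.5 times the count or within the 95% interval of the share, and 11 moved. Leaving out peaks also assigned to another gene, an alternative chosen after seeing the data together with the length classes, moved none of its 10 values beyond these bounds. With peaks of at least 250 bases, 13 genes were in both lists, 10 only without pyruvate, and 1 had a promoter-proximal peak in both. With the list without pyruvate limited to its widest peaks, as many as the other list holds, 6 genes were only with and 6 only without pyruvate, against 2 and 18, and 60% of its member peaks overlapped. Fewer peaks can then be listed only without pyruvate by construction. Without members over 500 kb or not located, 1 gene was only with pyruvate. At 10 kb, the proximal count was 8 genes in both lists and 2 only with pyruvate. At 1 kb and with located starts alone, 2 genes had one only without pyruvate, since flanks of unknown side are dropped. Stricter overlap gave 70.0 to 72.0% with pyruvate and 38.5 to 39.6% without. No paired analysis was possible because each condition has 1 library. Depth is unknown and limits every absence of a peak.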

Other observations

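The adhesion list also held 7 genes that the files name but that are not members, 5 because they carry no cell adhesion annotation in the files and 2 because they are annotated to matrix receptors. Ptprd, a receptor tyrosine phosphatase that organises synapses, had more peaks than any member, with 9 with pyruvate and 10 without, 5 of each overlapping and none promoter-proximal. Il1rapl2 had 1 overlapping pair of 193 bases with pyruvate and 247 bases without. Lrfn5 had 1 peak only with pyruvate (229 bases), and Cldn12 (301 bases) and Ptprs (206 bases, promoter-proximal) 1 each only without. The integrin genes Itga4, whose product pairs with integrin beta 1 to bind VCAM-1, and Itgb7 each had 1 peak only without pyruvate. These peaks were promoter-proximal, 213 and 212 bases wide. As above, promoter-proximal includes a flank of unknown side, and 42.3% of all genes had such a peak in either list.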
